A study of Mus musculus with 12 samples.

Results

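Endothelial genes and the VEGF ligands were described in mouse quadriceps by RNA-Seq. The genes, chosen by name, were Pecam1, Cdh5, Kdr, Flt1, Tek, Tie1, Emcn, Vwf, Vegfa and Vegfb, and all 10 were found among the 15344 genes measured. Quadriceps came from C57BL/6 mice aged 6 months, in 3 groups of 4 mice each: untreated wild-type mice (label WT), mice with a knockout of Gaa injected with PBS (label KO), and mice with the same knockout that received AAV2/8-LSPhGAApA, an adeno-associated virus vector with a liver-specific promoter and human GAA, by tail vein at 2e12 vg/kg (label AAV). The knockout mice, in both groups, were injected as males of 2 months and harvested 4 months later, and GAA is the lysosomal enzyme that breaks down glycogen and is missing in Pompe disease. The vector was built to express the enzyme in liver, so that muscle receives it from the blood. Each mouse gave 1 library. Values are normalized counts, that is, reads per gene divided by 1 size factor per library.

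Endothelial cells line every blood vessel, and in skeletal muscle most of them form the capillaries that run along the fibres. Muscle fibres and other cells secrete VEGF-A, which acts through the receptor tyrosine kinase VEGFR2 to drive endothelial survival, growth and permeability, while VEGFR1 binds VEGF-A and VEGF-B tightly and limits the VEGF-A that reaches VEGFR2. The angiopoietins act through a second receptor pair, TEK (TIE2) and TIE1, which stabilizes vessels. In RNA from whole muscle, fewer endothelial cells and less RNA per cell cannot be told apart.

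The sequences before the start sites of the ligand pair and of their receptors are shown because these 4 genes are the VEGF ligands and VEGF receptors among the 10, and 3 of them (Vegfa, Vegfb and Flt1) were called in at least 1 comparison. Of the 10 genes, 7 were matched in the RefSeq promoter table (GRCm38.p6), and the stretches before the start of Vegfa (chr17:46032378-46032627), Vegfb (chr19:6987652-6987901), Flt1 (chr5:147726012-147726261) and Kdr (chr5:75978459-75978705), all on the minus strand, are given 5′ to 3′. Capitals mark 2 motifs on either strand, GGAAG, the core bound by ETS factors, which endothelial genes commonly use, and GGGCGG, the GC box. A further motif, ACGTG, the core bound by hypoxia-inducible factors, was searched too. The motifs do not overlap one another in these stretches.
Vegfa: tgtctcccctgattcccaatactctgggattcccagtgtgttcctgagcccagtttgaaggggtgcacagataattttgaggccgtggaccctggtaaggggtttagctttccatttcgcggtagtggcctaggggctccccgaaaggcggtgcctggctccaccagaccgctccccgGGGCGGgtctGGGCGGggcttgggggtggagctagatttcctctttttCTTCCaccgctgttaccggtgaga
Vegfb: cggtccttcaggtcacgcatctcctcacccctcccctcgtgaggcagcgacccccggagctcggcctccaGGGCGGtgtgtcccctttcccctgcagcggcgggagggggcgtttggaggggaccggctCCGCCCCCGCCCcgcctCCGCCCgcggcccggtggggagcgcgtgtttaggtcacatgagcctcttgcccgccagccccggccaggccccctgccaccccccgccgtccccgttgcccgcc
Flt1: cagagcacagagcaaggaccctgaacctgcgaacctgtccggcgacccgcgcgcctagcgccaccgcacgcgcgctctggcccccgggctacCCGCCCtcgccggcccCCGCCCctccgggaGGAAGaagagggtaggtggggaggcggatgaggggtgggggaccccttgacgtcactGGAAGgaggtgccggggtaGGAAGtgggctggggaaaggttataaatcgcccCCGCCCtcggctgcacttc
Kdr: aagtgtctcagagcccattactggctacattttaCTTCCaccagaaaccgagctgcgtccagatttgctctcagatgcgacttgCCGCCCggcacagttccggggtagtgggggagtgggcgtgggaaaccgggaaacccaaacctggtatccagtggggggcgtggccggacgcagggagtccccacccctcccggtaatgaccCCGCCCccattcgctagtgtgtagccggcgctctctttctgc
Flt1 held 3 matches to GGAAG, Kdr 1, Vegfa 1 and Vegfb 0. For GGGCGG the matches numbered 2 in Vegfa, 4 in Vegfb, 3 in Flt1 and 2 in Kdr. None of the 4 stretches contained ACGTG, which says only that these letters are absent from these windows. The stretch of Kdr holds 247 bases and the others 250. Among 32851 RefSeq windows of 250 bases, 64.1% held GGAAG, 32.7% GGGCGG and 16.6% ACGTG, so that the first is in most windows. The matches are letters in a sequence and were not tested as binding sites.

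Before the comparisons, the libraries were checked against their labels. Gaa, the targeted gene, had normalized counts of 343, 14640.2, 324 and 460.3 in libraries WT 1 to 4, of 12151, 13074, 11936 and 12895 in KO 1 to 4 and of 947, 587, 499.6 and 9854 in AAV 1 to 4. Its level was thus higher in every library labelled KO than in 3 of the 4 labelled WT and all 4 labelled AAV, against the label KO, and WT replicate 2 and AAV replicate 4 stood apart from the others of their label. Counts per gene do not show which exons the reads came from, so reads from a targeted allele cannot be told apart from those of an intact one. Every direction below rests on the labels, and results are also given without these 2 libraries. WT replicate 3 stood apart in another way: over all genes its log2 values correlated more closely with the libraries labelled KO (mean r = 0.962, across genes, which are not independent replicates) than with the other libraries labelled WT (0.948), whereas WT replicates 1, 2 and 4 had 0.938, 0.912 and 0.919 with the libraries labelled KO. Reads per library lay between 22122233 and 47379737, and each of the 10 genes had at least 71 reads in every library. The 9 muscle fibre markers summed to between 3660250.0 and 6032720.0 normalized counts, so every library carried the defining transcripts of skeletal muscle.

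All 10 genes were expressed in all 12 libraries, and the VEGF ligands stood far above the endothelial genes when counts were divided by exon length. The order below is a description, and neighbours were called apart where the ranges of mean ± SD did not overlap. In the libraries labelled WT, Vegfb had 2626 ± 849 normalized counts per kb of exon (SD, n = 4) and Vegfa 896 ± 373, apart from each other. Of the endothelial genes, Cdh5 was highest at 191 ± 89.5 per kb and Vwf lowest at 10.6 ± 3.43, apart from its neighbour Emcn at 35.6 ± 14.7. Between them Pecam1, Flt1, Tie1, Kdr and Tek followed in that order without any neighbours standing apart. The ligands changed places in the libraries labelled KO, where Vegfa (1189.9 ± 174 per kb) and Vegfb (1044 ± 156) overlapped, and in those labelled AAV, where Vegfa had 2036 ± 539.7 and Vegfb 1649 ± 439.5. The order of the 8 endothelial genes was the same in all 3 groups. Exon length here is that of all annotated exons of a gene joined (16064 bases for Vwf, 13504 for Flt1). The order rests on that choice of length. In the libraries labelled KO, Cdh5 (360.5 ± 31.5 per kb) stood apart from Pecam1 (219 ± 27.2), Tie1 (166 ± 15.4) from Kdr (85.5 ± 17.4) and Tek (81.7 ± 22.8) from Emcn (47.9 ± 5.06), while Vwf (40.4 ± 7.8) reached Emcn.

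**Figure D1:**
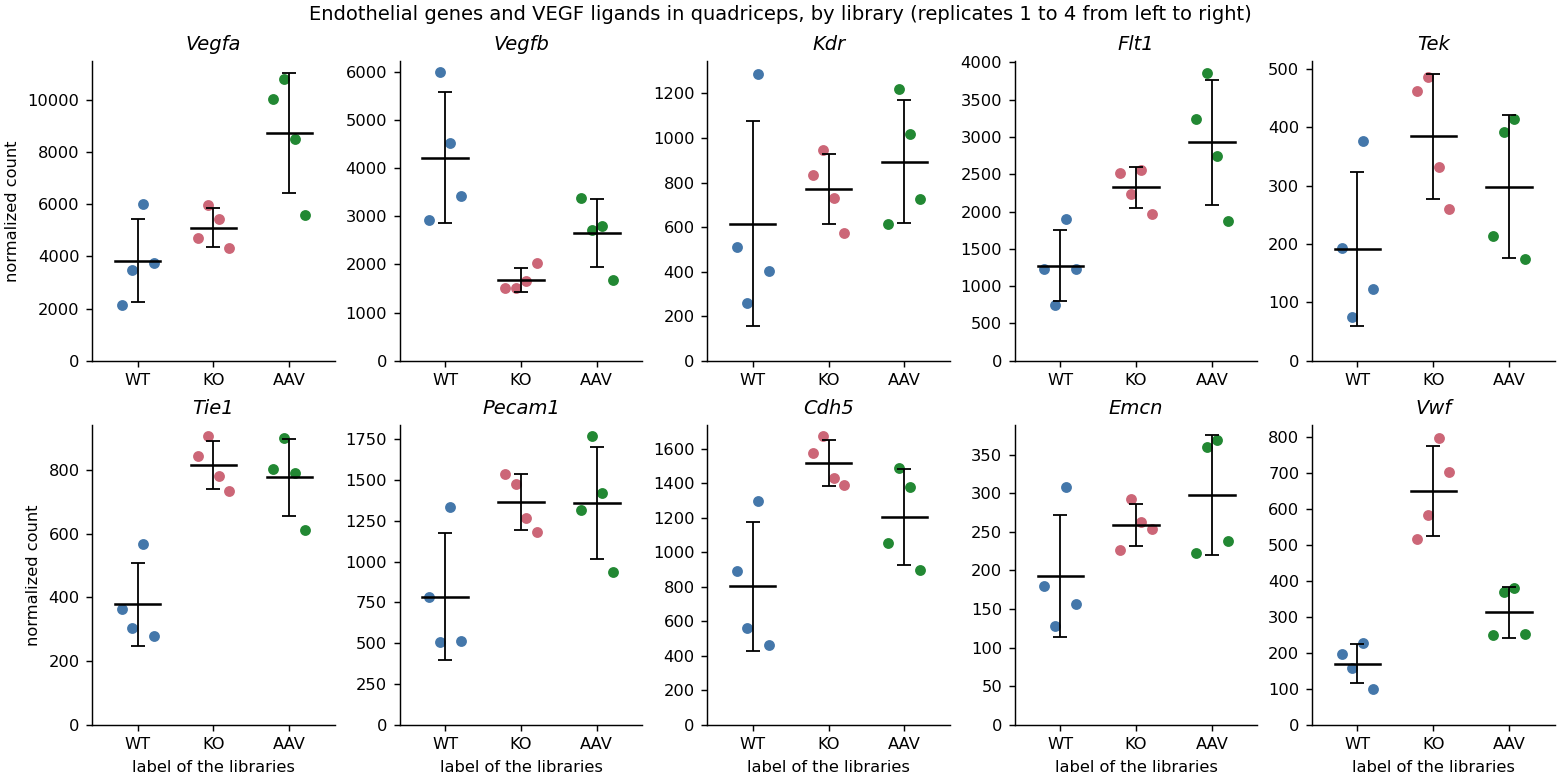
Normalized counts (vertical axes, from 0) of the 10 genes in the 4 libraries of each label; points are libraries, black bars the mean and SD. Vwf is the gene whose 3 groups do not overlap at all, with 98.5 to 226 in libraries labelled WT, 248 to 379 in those labelled AAV and 516 to 797 in those labelled KO.

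The first comparison, PBS-treated knockout against wild-type, asks how quadriceps of the knockout without the vector differs. Endothelial transcripts were higher in the libraries labelled KO: Vwf, Tie1, Cdh5, Flt1 and Pecam1 rose, by 1.98, 1.16, 1.03, 0.94 and 0.91 on the log2 scale. Vegfb, a VEGF ligand tied to fatty acid handling in muscle, fell by 1.29, and Vegfa, Kdr, Tek and Emcn did not pass the test. With an adjusted p under 0.05 (limma, Benjamini-Hochberg over 14859 genes), 5 of the 10 genes were thus higher, where 12.3% of all genes tested were, and 1 was lower, where 15.3% were. When a log2 fold change of 1 or more in either direction was also required, 4 of the 10 passed (Vwf, Tie1, Cdh5 and Vegfb) against 13.9% of all genes. The groups did not overlap for 4 genes that were higher (Vwf, Tie1, Cdh5 and Flt1; 13.3% of all genes) and for 1 that was lower (Vegfb; 15.1%). The median log2 fold change was 0.92 over the 10 genes and 0.98 over the 8 endothelial ones, beside 0.02 over all genes tested.

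Of the ligands, Vegfa (ENSMUSG00000023951, chr17:46016993-46032369, - strand, GENCODE M21 on GRCm38 as for all genes here) had 2134, 3496, 5994 and 3741 normalized counts in libraries WT 1 to 4 and 4690.0, 5975, 5421 and 4309 in KO 1 to 4. The groups overlapped, because WT 3 was above all of KO 1 to 4. The log2 fold change of Vegfa was 0.49 (SE 0.27, adjusted p = 0.184, limma with Benjamini-Hochberg adjustment). For Vegfb (ENSMUSG00000024962, chr19:6982473-6987651, - strand), the libraries labelled WT gave 2917, 5996, 4521 and 3423 and those labelled KO 1505, 1505, 1658 and 2035. Every library labelled WT was above every library labelled KO. The mean fell from 4214 ± 1363 (SD, n = 4) to 1676 ± 250.2 (SD, n = 4), a log2 fold change of -1.29 (SE 0.21, adjusted p = 0.00387, limma, Benjamini-Hochberg), and the call held in each of the 8 fits that left out 1 library. After a correction for GC content the value was -0.82 (adjusted p = 0.00842, limma, Benjamini-Hochberg), smaller but still past the threshold.

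Among the VEGF receptors, Flt1 (VEGFR1; ENSMUSG00000029648, chr5:147561604-147726011, - strand) counted 1226, 741, 1906 and 1228 in WT 1 to 4 and 2519, 2237, 2561 and 1972 in KO 1 to 4. The lowest library labelled KO was just above WT 3, the highest of the libraries labelled WT. It rose by 0.94 (SE 0.24, adjusted p = 0.0207, limma, Benjamini-Hochberg), a call that was lost when WT 4, KO 1 or KO 3 was left out, with an adjusted p of up to 0.0586. Kdr (VEGFR2, the main signalling receptor of VEGF-A; ENSMUSG00000062960, chr5:75932827-75978458, - strand) ranged from 262 to 1289 in libraries labelled WT and from 576 to 944 in those labelled KO. WT 3 was the highest of these 8 libraries, and the range of the libraries labelled WT took in that of the libraries labelled KO. The log2 fold change of Kdr was 0.56 (SE 0.41, adjusted p = 0.312, limma, Benjamini-Hochberg). The difference between the responses of Flt1 and Kdr was not tested.

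In the angiopoietin receptor pair, Tie1 (an orphan receptor that modulates TEK; ENSMUSG00000033191, chr4:118471191-118490061, - strand) had 363, 303, 567 and 279 normalized counts in WT 1 to 4 and 844, 909, 782 and 735 in KO 1 to 4. The groups were separate, with every library labelled KO higher. Its rise of 1.16 (SE 0.21, adjusted p = 0.00525, limma, Benjamini-Hochberg) kept an adjusted p under 0.05 without any 1 library. Tek (the angiopoietin receptor; ENSMUSG00000006386, chr4:94739289-94874976, + strand) gave 193, 75.5, 377 and 123 in WT 1 to 4 and 462, 486, 332 and 260.0 in KO 1 to 4. WT 3 lay within the range of the libraries labelled KO and the other 3 below it. The log2 fold change, 1.20, was as large as that of Tie1 but its SE was 0.43 and it did not pass (adjusted p = 0.0609, limma, Benjamini-Hochberg).

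Of the surface proteins, Cdh5 (VE-cadherin, the adhesion protein of endothelial junctions; ENSMUSG00000031871, chr8:104101625-104144511, + strand) had 889, 561, 1294 and 459 normalized counts in WT 1 to 4 and 1572, 1674, 1428 and 1386 in KO 1 to 4. No library labelled WT reached the libraries labelled KO. It rose by 1.03 (SE 0.28, adjusted p = 0.0239, limma, Benjamini-Hochberg). Pecam1 (CD31, the platelet endothelial adhesion molecule; ENSMUSG00000020717, chr11:106654217-106750628, - strand) counted 782, 508, 1337 and 515 in WT 1 to 4 and 1538, 1478, 1268 and 1180.4 in KO 1 to 4. WT 3 was within the range of the libraries labelled KO. It rose by 0.91 (SE 0.28, adjusted p = 0.0378, limma, Benjamini-Hochberg). Leaving out 1 library at a time ended the call of Pecam1 in 7 of 8 fits (all but the fit without WT 3; adjusted p up to 0.102) and that of Cdh5 in 5 of 8 (WT 2, WT 4, KO 1, KO 2 and KO 3; up to 0.0676). Emcn (endomucin, a sialoglycoprotein of capillary and venous endothelium; ENSMUSG00000054690, chr3:137341067-137432185, + strand) ranged from 128 to 308 in libraries labelled WT and from 226 to 292 in those labelled KO. With WT 3 above every library labelled KO, the groups overlapped, and the log2 fold change of 0.50 did not pass (SE 0.25, adjusted p = 0.154, limma, Benjamini-Hochberg).

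Vwf (von Willebrand factor, the large blood protein that endothelial cells store and release to bind platelets; ENSMUSG00000001930, chr6:125546774-125686679, + strand) changed more than any other of the 10 genes. Its normalized counts were 197, 157, 226 and 98.5 in WT 1 to 4 and 516, 582, 797 and 703 in KO 1 to 4. WT 3, high for most endothelial genes, was here far below every library labelled KO. The mean was 169.7 ± 55.1 (SD, n = 4) against 649 ± 125 (SD, n = 4), a log2 fold change of 1.98 (SE 0.25, adjusted p = 0.00128, limma, Benjamini-Hochberg), or 3.93-fold.

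WT 3 bears on most of these values. Without it, all 10 genes passed (9 higher, Vegfb lower), and the log2 fold changes became 1.01 for Kdr (adjusted p = 0.00533), 1.61 for Tek (0.00208), 0.75 for Emcn (0.00389) and 0.74 for Vegfa (0.0107; limma, Benjamini-Hochberg), but 7163 genes were then called in all in place of 4097. Without WT 2, the library labelled WT with high Gaa, 4 of the 10 passed, namely Vwf, Tie1, Flt1 and Vegfb, of 2636 genes called in all. Among the 8 fits without 1 library, Kdr, Tek, Emcn and Vegfa passed only in that without WT 3. Their lowest log2 fold changes in these fits were 0.24, 0.84, 0.33 and 0.24.

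The second comparison, AAV-treated against PBS-treated knockout, asks what the liver-directed vector changed. Vwf fell by 1.07 on the log2 scale in the libraries labelled AAV, while both VEGF ligands rose, Vegfa by 0.74 and Vegfb by 0.63, and the other 7 genes did not pass the test. This comparison shares the libraries labelled KO with the first one. By the same rule (limma, Benjamini-Hochberg over 14894 genes), 2 of the 10 genes were higher, where 12.8% of all genes were, and 1 was lower, where 13.4% were. When a log2 fold change of 1 or more in either direction was also required, Vwf alone passed (8.98% of all genes). It was also the 1 gene without overlap, in the lower direction (15.8% of all genes); 0 of the 10 were higher without overlap (14.8%). Near the background as these shares are, the counts show nothing particular to the 10 genes.

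Vwf had 248, 368, 379 and 251 normalized counts in AAV 1 to 4, a mean of 312 ± 71.8 (SD, n = 4). Every library labelled AAV lay below the libraries labelled KO and above those labelled WT. The log2 fold change was -1.07 (SE 0.19, adjusted p = 0.00682, limma, Benjamini-Hochberg), and it kept an adjusted p under 0.05 in every alternative run, with its size between -0.90 and -1.20 under other settings.

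For Vegfa the libraries AAV 1 to 4 gave 10039, 10805, 8487 and 5573 normalized counts. AAV 4, the library with high Gaa, was within the range of the libraries labelled KO and the other 3 were above it. The test gave 0.74 (SE 0.20, adjusted p = 0.0262, limma, Benjamini-Hochberg), which was lost without KO 1, KO 4, AAV 1 or AAV 2 (adjusted p up to 0.0758) and, with all 12 libraries in 1 fit, was 0.0751. The correction for GC content gave 0.59 (adjusted p = 0.0725), which did not pass, nor did it with the replicate block added (0.0508; limma, Benjamini-Hochberg). Vegfb counted 3378, 2723, 2800.2 and 1683 in AAV 1 to 4. Again AAV 4 was the lowest and overlapped with KO 1 to 4. For Vegfb the log2 fold change of 0.63 (SE 0.20, adjusted p = 0.0445, limma, Benjamini-Hochberg) passed in 1 of the 8 fits without 1 library, the one without AAV 4, and the call was lost with the replicate block (adjusted p = 0.0966). After a correction for GC content the value was 0.25 (adjusted p = 0.341).

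The receptors did not move with their ligands beyond the spread. Flt1 had 3242, 3860.0, 2741 and 1871 normalized counts in AAV 1 to 4 (log2 fold change 0.29, SE 0.20, adjusted p = 0.294, limma, Benjamini-Hochberg), and Kdr ranged from 613 to 1222 (0.18, SE 0.23). Tie1 ranged from 611 to 902 (-0.08, SE 0.14) and Tek from 174 to 415 (-0.42, SE 0.31). For both pairs the libraries labelled AAV overlapped with those labelled KO. Pecam1 ranged from 936 to 1769 in the libraries labelled AAV (-0.03, SE 0.18), Cdh5 from 896 to 1487 (-0.36, SE 0.16) and Emcn from 222 to 368 (0.17, SE 0.19). AAV 4 was the lowest library labelled AAV for Flt1, Tek, Tie1, Pecam1, Cdh5, Vegfa and Vegfb. Without it, Flt1 also passed (0.49, adjusted p = 0.0381, limma, Benjamini-Hochberg) and 4 of the 10 genes were called. Under scaling by total reads, which moved the median of all genes to 0.21, Pecam1 and Tie1 changed sign without passing.

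The third comparison, AAV-treated knockout against wild-type, asks what remained different after treatment. Of the 10 genes, 9 had a positive and 1, Vegfb, a negative log2 fold change, and the median was 0.83, beside -0.03 over all 14939 genes tested. None passed the test (limma, Benjamini-Hochberg): 0 were higher (0.951% of all genes), 0 lower (0.341%) and 0 passed with a log2 fold change of 1 or more in either direction (0.951%). At an unadjusted p under 0.05 (limma) there were 7 of the 10, beside 2719 of the 14939 genes. By edgeR 0 were called, of 163 genes called in all. DESeq2 called 4 (Tie1, Flt1, Vegfa and Vwf), of 937 genes called in all. Tie1 and Vwf were higher without overlap, 2 of the 10 genes where 6.69% of all genes were, and 0 were lower without overlap (4.97%).

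The values nearest to the threshold were those of Tie1 (1.08, SE 0.23, adjusted p = 0.0582), Flt1 (1.23, SE 0.30, adjusted p = 0.0781) and Vegfa (1.23, SE 0.31, adjusted p = 0.0863, all limma, Benjamini-Hochberg). Each of these passed when all 12 libraries entered 1 fit, where the spread is shared with the libraries labelled KO (adjusted p = 0.0101, 0.0184 and 0.0221). They passed also without WT 3, together with Pecam1 (1.17, adjusted p = 0.04). Without WT 2 and AAV 4, 0 of the 10 passed, of 10 genes called in all, and Vegfb was at -0.27. Vwf stood at 0.91 (SE 0.28, adjusted p = 0.138), Pecam1 at 0.87 (0.193), Tek at 0.79 (0.404) and Kdr at 0.75 (0.385). Cdh5 had 0.67 (0.291), Emcn 0.67 (0.268) and Vegfb -0.66 (0.237, limma, Benjamini-Hochberg). In the fits without 1 library, Tek ran from 0.43 to 1.19 and Kdr from 0.42 to 1.19, neither passing. Values that missed the threshold are not shown to be equal: WT 3 was at or above the mean of the libraries labelled AAV for Kdr, Tek, Cdh5 and Emcn.

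**Figure D2:**
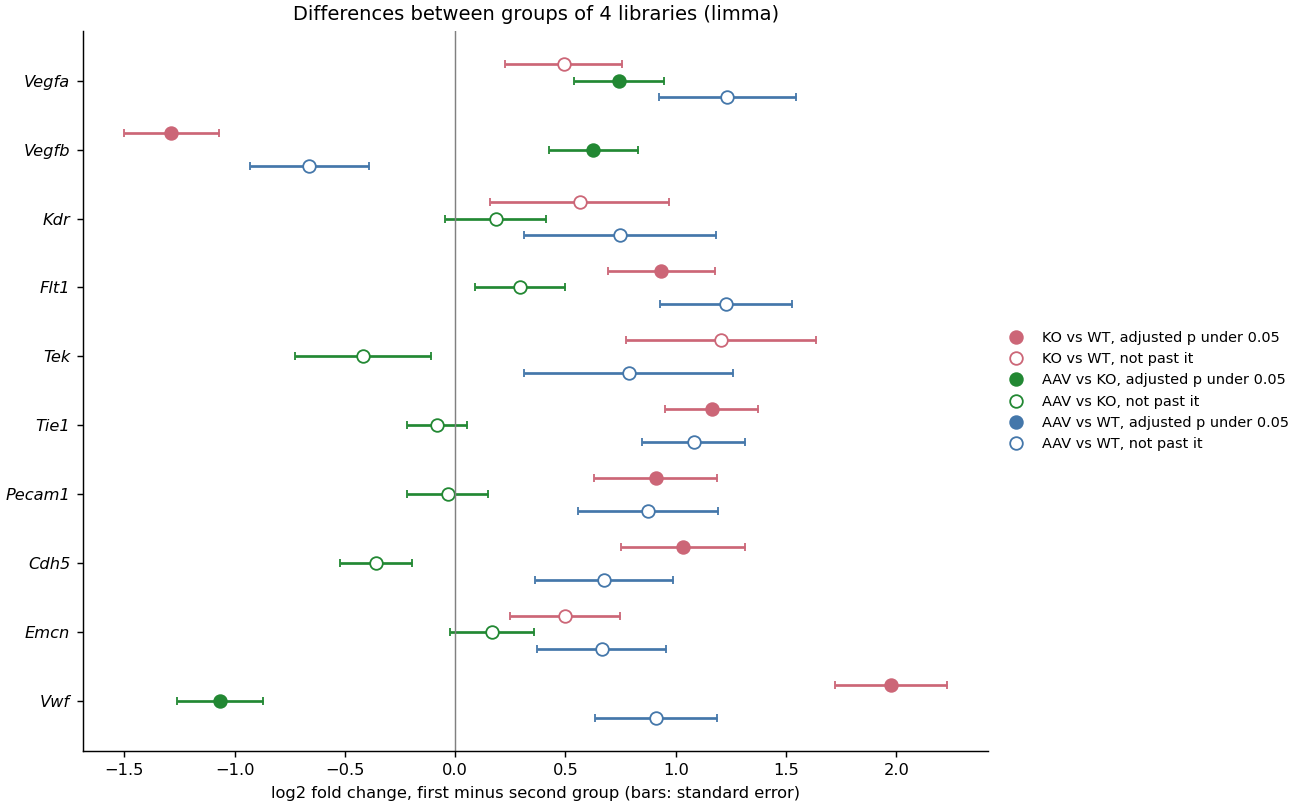
Log2 fold change (horizontal axis, first minus second label; bars, standard error) of the 10 genes in the 3 comparisons, with filled points where the adjusted p was under 0.05. Vwf runs from 1.98 for KO against WT to -1.07 for AAV against KO, and Vegfb is the 1 gene on the lower side in the first comparison.

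Ratios within a library, which do not depend on its scaling, show how unequally the genes moved. They are descriptions with no test. The ratio of Vegfa to Vegfb, per kb of exon, was 0.274, 0.218, 0.497 and 0.409 in WT 1 to 4, 1.17, 1.49, 1.22 and 0.793 in KO 1 to 4 and 1.11, 1.49, 1.14 and 1.24 in AAV 1 to 4. It was below 0.5 in every library labelled WT, and the lowest of the other 8 libraries was KO 4. WT 3, whose endothelial genes were high, kept a low ratio, and AAV 4, with low counts of both ligands, had a ratio like those of the other libraries labelled AAV. Vwf relative to Pecam1, per kb, was 0.0978, 0.12, 0.0654 and 0.0742 in WT 1 to 4, 0.13, 0.153, 0.244 and 0.231 in KO 1 to 4 and 0.0731, 0.0808, 0.104 and 0.104 in AAV 1 to 4. Here the libraries labelled AAV spanned a range within that of the libraries labelled WT, and those labelled KO lay above both. As a share of the summed normalized counts of the 8 endothelial genes, Vwf took 4.1% ± 1.31 (SD, n = 4) in libraries labelled WT, 8.13% ± 2.01 in those labelled KO and 3.91% ± 0.62 in those labelled AAV. For Flt1 the shares were 29.8% ± 5.33, 28.7% ± 2.3 and 36.1% ± 4.56, where the libraries labelled WT overlapped with both other groups and those labelled AAV (32.2 to 42%) lay above those labelled KO (26 to 31.4%). The ratio of Flt1 to Kdr, per kb, ran from 0.989 to 2.04 in libraries labelled WT, from 1.58 to 2.34 in those labelled KO and from 1.73 to 3.53 in those labelled AAV, so that the groups overlapped.

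**Figure D3:**
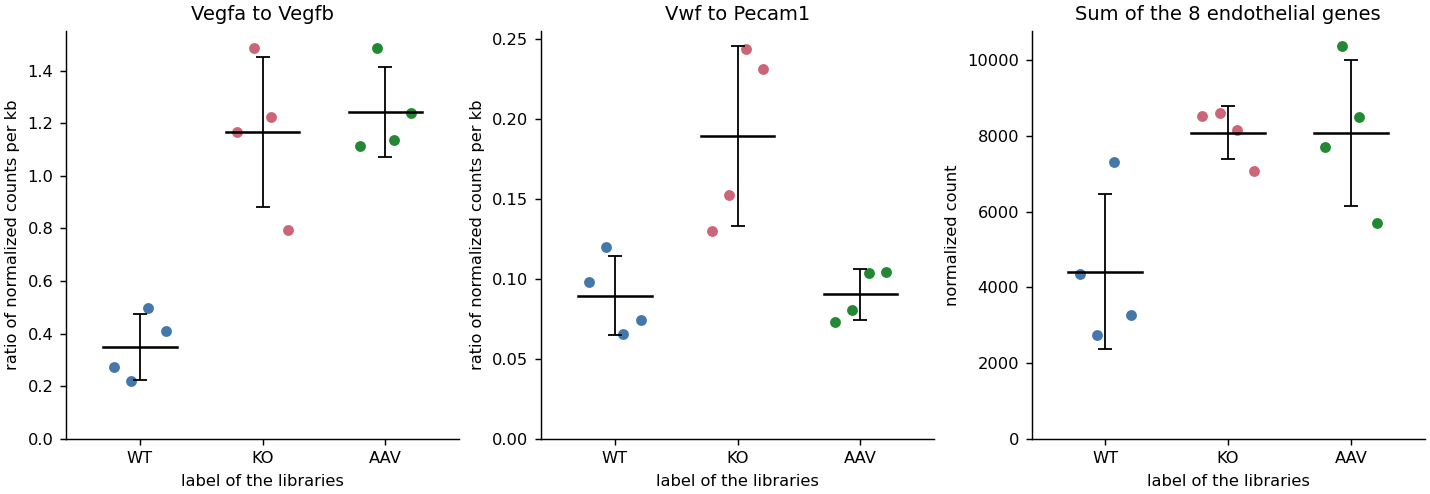
Ratio of Vegfa to Vegfb and of Vwf to Pecam1 (normalized counts per kb of exon) and the sum of the 8 endothelial genes (normalized counts) in each library; points are libraries, black bars the mean and SD. The ratio of the ligands separates the libraries labelled WT (0.218 to 0.497) from the rest, the ratio of Vwf to Pecam1 those labelled KO (0.13 to 0.244), and the sum overlaps between libraries labelled WT (2735 to 7302) and KO (7066 to 8601).

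Other endothelial genes gave the wider setting of the 10. The list counts that follow stand beside 12.3% of all genes higher and 15.3% lower in the first comparison, 12.8% and 13.4% in the second, and 0.951% and 0.341% in the third. Of 30 further endothelial genes, 18 rose and 0 fell in the libraries labelled KO against WT, with a median log2 fold change of 1.02. They included Ushbp1 (0.70, adjusted p = 0.00462), Nos3, the endothelial nitric oxide synthase (1.22, 0.00505), and Egfl7, a secreted endothelial matrix protein (1.05, 0.00594, limma, Benjamini-Hochberg over all genes). The count was 25 without WT 3 and 11 without WT 2. Against the libraries labelled KO, 4 of the 30 rose and 0 fell in those labelled AAV (median -0.04), among them Ushbp1 (0.74), Ramp2, a subunit of the adrenomedullin receptor (0.82; lost with the correction for GC content, at 0.61), and Rasip1, which endothelial cells need to open a vessel lumen (0.47). The call of Rasip1 was lost in 5 of 8 fits without 1 library and with the replicate block, and the correction for GC content took its value to 0.0181. The count of 4 is near the share of all genes that were higher there (12.8%). Compared with the libraries labelled WT, 5 rose and 0 fell in those labelled AAV (median 0.83), with Ushbp1 (1.44, adjusted p = 0.00232), Egfl7 (1.50, 0.00973) and Esam, an endothelial junction protein (0.99, 0.0248, limma, Benjamini-Hochberg). This count was 14 without WT 3 and 1 without WT 2 and AAV 4, and Esam lost its call in 6 of 8 fits without 1 library. Ushbp1 and Egfl7 passed in all 3 comparisons, Egfl7 narrowly for AAV against KO (0.44, adjusted p = 0.0497, limma, Benjamini-Hochberg), a call lost in 7 of 8 fits without 1 library and in 9 of the 13 other settings, with a value of 0.18 after the correction for GC content. Ushbp1, called under all of these in all 3 comparisons, was at 337, 333, 334 and 369.6 normalized counts in WT 1 to 4, 489, 569, 621 and 563 in KO 1 to 4 and 956, 923, 879 and 981 in AAV 1 to 4. The 3 groups of Ushbp1 did not overlap, and WT 3 was like the other libraries labelled WT.

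Genes of arteries, veins and lymphatic vessels were also mostly higher where they passed in the first comparison. Of 18 arterial, venous and lymphatic genes tested there, 7 rose and 1 fell in the libraries labelled KO (median 0.94). Arterial Sema3g (1.28, adjusted p = 0.00642) and Gja5, the connexin-40 gene (1.65, 0.0108), and venous Nr2f2, the COUP-TFII gene (0.81, 0.0128, limma, Benjamini-Hochberg), were among those that rose. Pdpn, podoplanin of lymphatic endothelium and also of fibroblasts and macrophages, fell (-1.84) and rose again in the libraries labelled AAV (1.22, adjusted p = 0.04), where it was the 1 gene of 19 to pass (median -0.08) and lost its call in 7 of 8 fits without 1 library (adjusted p up to 0.0979, limma, Benjamini-Hochberg). Without WT 3 the count called in the first comparison was 15, and without WT 2 it was 4. In the third comparison 0 of the 19 passed by limma (median 0.83) and 3 with all 12 libraries in 1 fit, and 7 passed without WT 3. At an unadjusted p under 0.05 (limma) there were 8 of the 19, beside 2719 of 14939 genes tested. By edgeR 0 were called, of 163 genes in all, and by DESeq2 2, of 937 in all.

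Capillary genes for lipid and small-molecule exchange formed another list. Of 10, 1 rose and 1 fell in the libraries labelled KO (median 0.05), and 5 were called without WT 3. Aqp1, the water channel of capillary endothelium and red cells, counted 4039, 3064, 7438 and 2398 in WT 1 to 4 and 10475, 11062, 11654 and 10460.0 in KO 1 to 4 (1.50, adjusted p = 0.00661, limma, Benjamini-Hochberg). Slc2a1, the glucose transporter GLUT1, had 1093, 1249, 289 and 1171 in WT 1 to 4 and 166, 168, 186 and 223 in KO 1 to 4 (-2.15, adjusted p = 0.00645). Of the libraries labelled WT, WT 3 was the highest for Aqp1 and the lowest for Slc2a1, nearest to the libraries labelled KO in both. Which cells of the whole muscle the reads of Slc2a1 came from was not tested, so its fall is not shown to be one of capillaries. In the libraries labelled AAV, 3 of the 10 rose against KO (median 0.46): Slc2a1 (1.62), Car4, the carbonic anhydrase on the capillary surface (1.66, adjusted p = 0.0134), and Gpihbp1, which carries lipoprotein lipase to the capillary lumen (0.49, 0.0475, limma, Benjamini-Hochberg). The call of Gpihbp1 was lost in 7 of 8 fits without 1 library (adjusted p up to 0.117) and after the correction for GC content (0.31), while those of Car4 and Slc2a1 held in all 8. Car4 had 129, 140.2, 101 and 61.9 normalized counts in KO 1 to 4 and 426, 507, 349.6 and 156 in AAV 1 to 4, without overlap. Against the libraries labelled WT, 0 of the 10 passed by limma (median 0.75). At an unadjusted p under 0.05 (limma) there were 5 of the 10, beside 2719 of 14939 genes tested. By edgeR 0 were called, of 163 genes in all, and by DESeq2 2, of 937 in all.

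In the VEGF, angiopoietin and hypoxia pathway, 8 of 31 genes rose and 3 fell in the libraries labelled KO (median 0.36). The 11 called became 17 without WT 3, 6 without WT 4, KO 1 or KO 3, and 5 without KO 2. Risers included Ptprb (VE-PTP, the phosphatase that restrains TEK), at 1.42 (adjusted p = 0.0113, limma, Benjamini-Hochberg). Notch1 (0.93, 0.0114) and Pgf, the placental growth factor that binds VEGFR1 (1.37, 0.012, limma, Benjamini-Hochberg), rose too. The counts of Pgf were low, at 11.7 to 30 in libraries labelled WT and 42.5 to 63.1 in those labelled KO. Ptprb also stands among the further endothelial genes above, and Dll4 among the vessel genes, so these list counts are not separate. Those that fell were Egln3, an oxygen-sensing prolyl hydroxylase (-2.05, adjusted p = 0.00135), Vash1, the angiogenesis inhibitor vasohibin (-1.50, 0.00246; -0.92 after the correction for GC content), and Ppargc1b, the coactivator PGC-1β (-0.78, 0.0208; lost in 3 of 8 fits without 1 library). The genes of the oxygen-regulated factors HIF-1α and HIF-2α, Hif1a and Epas1, picked here after their values were seen, had log2 fold changes of 0.36 (adjusted p = 0.334) and 0.84 (0.0232, limma, Benjamini-Hochberg). In AAV against KO, Ppargc1b (0.99, adjusted p = 0.005) and Vegfd (0.80, 0.00848) rose, and Fgf2 fell (-1.09, 0.0439; its counts did not exceed 22.7 in any library and its call was lost in 6 of 8 fits without 1 library; median of the 31 genes 0.07). In the third comparison Vash1 alone passed, lower in the libraries labelled AAV (-1.26, adjusted p = 0.0311, limma, Benjamini-Hochberg; median 0.29), and it lost the call in 6 of the 8 fits without 1 library (adjusted p up to 0.11). For this list 5 genes were called without WT 3, 5 by DESeq2 and 6 with all 12 libraries in 1 fit.

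Markers of other cells were measured beside the endothelial genes. Of 12 mural cell markers, genes of pericytes and smooth muscle that surround the vessels, 6 rose and 1 fell in the libraries labelled KO (median 0.71). The 7 called became 11 without WT 3, 4 without KO 4 and 3 without WT 2, WT 4, KO 1, KO 2 or KO 3. Their summed level was 10036 to 18986 in libraries labelled WT, 21504 to 23753 in those labelled KO and 13909.6 to 21737 in those labelled AAV. Abcc9 alone gave a mean of 4366 of the mean sum of 13680 in libraries labelled WT. In those labelled KO it gave 7065 of 22797. Which cells of the whole muscle these reads came from was not tested. Abcc9 (0.70), Ndufa4l2 (0.69) and Rgs5 (1.27; lost in 5 of 8 fits without 1 library) were among the 6, and Cspg4, the pericyte proteoglycan NG2, fell (-1.68, adjusted p = 0.00708). In the libraries labelled AAV against KO, Abcc9 fell (-0.69) and Cspg4 rose (1.67; limma, Benjamini-Hochberg; 12 genes, median -0.13). Against the libraries labelled WT, Pdgfrb rose, at 0.96 (adjusted p = 0.0481; median 0.73), but the call was lost in 7 of 8 fits without 1 library (adjusted p up to 0.161, limma, Benjamini-Hochberg). Macrophage markers went the other way: 5 of 8 fell and 1 rose in the libraries labelled KO (median -1.38), with a summed level of 1041 to 3187 in libraries labelled WT, 649 to 1194 in those labelled KO and 727 to 3245 in those labelled AAV. The 6 called became 3 with the replicate block and without WT 1, WT 4, KO 1 or KO 2. Cd163, the 1 that rose (0.79), lost its call in 6 of 8 fits without 1 library, and Cd68 in none. Cd68 had 560.1, 590.0, 69.8 and 568 normalized counts in WT 1 to 4, 36.7, 28.2, 33.7 and 30.9 in KO 1 to 4 and 127, 74.5, 35.4 and 415 in AAV 1 to 4. WT 3 and AAV 3 were thus nearest to the libraries labelled KO, and AAV 4 nearest to those labelled WT.

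Further lists covered fat, blood, connective tissue, nerve, stem and fibre markers. Adipocyte markers (0 of 6 called, median 1.34) had a summed level of 373 to 7626 in the libraries labelled KO, with the highest in KO 3, and blood cell and platelet markers (0 of 8 called, median -0.51) one of 323 to 2099. Of 7 fibroblast markers 1 rose (Dpt, 0.73), of 4 satellite cell markers 1 rose (Chrdl2, 1.34) and of 5 Schwann cell markers 0 passed. The counts of Chrdl2 were low, at 7.8 to 14.9 in libraries labelled WT and 23.9 to 37.7 in those labelled KO. Among 9 muscle fibre markers, Myh4 of fast IIB fibres rose (0.73), while Myh1 (-1.36), Myh7 of slow fibres (-2.42) and Myh2 (-1.89), of fibre types with more capillaries, fell. Leaving out 1 library ended the call of Myh4 in 7 of 8 fits, those of Myh7 and Myh2 in 6 each, that of Dpt in 5 and that of Myh1 in 1. In the libraries labelled AAV against KO, Myh1 (1.09), Myh2 (2.31) and Myh7 (5.78) rose, and so did 3 blood cell and platelet markers, Hba-a1 (2.16), Hba-a2 (1.99) and Itga2b (1.18), with Pax7 (0.68), while Dpt fell (-0.82; all limma, Benjamini-Hochberg). In that comparison the calls of Itga2b and Pax7 were each lost in 5 of 8 fits without 1 library, those of Hba-a1, Hba-a2 and Dpt in 4, that of Myh2 in 2 and that of Myh1 in 1, and Pax7 was at 0.44 after the correction for GC content, which did not pass. The part of these other cell types and fibre types in the values of the 10 genes was not tested. Over the 12 lists together, without the 10 genes, 42 of 146 genes were higher and 14 lower in the first comparison (12.3% and 15.3% over all genes), 18 and 3 of 147 in the second (12.8% and 13.4%) and 6 and 1 of 147 in the third (0.951% and 0.341%). The count higher in the second is near its share over all genes.

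**Figure D4:**
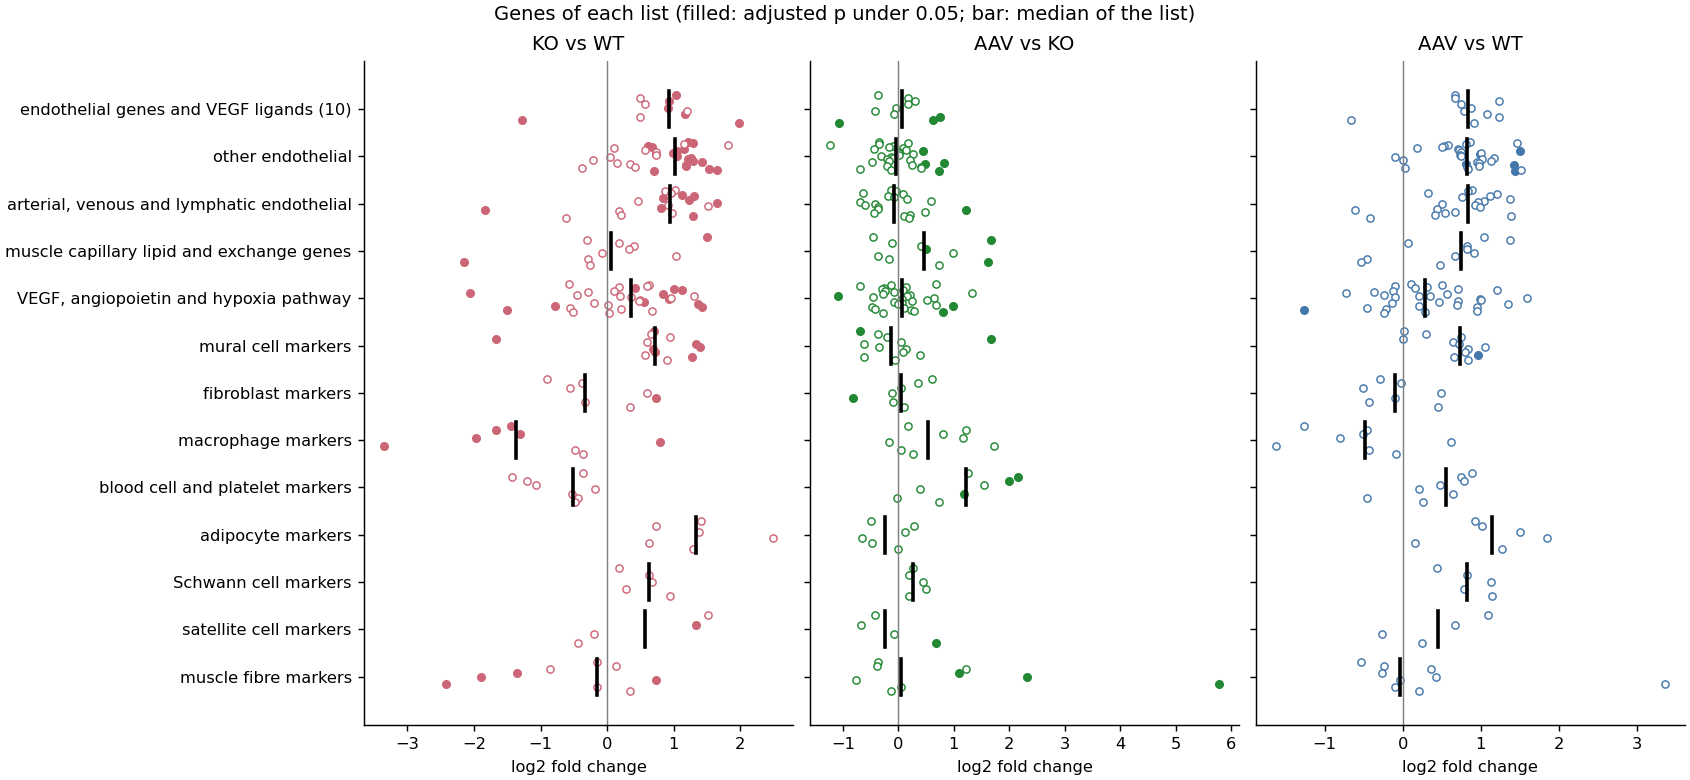
Log2 fold change (horizontal axis) of each gene of the 10 and of the 12 lists (rows) in the 3 comparisons (panels); filled points have an adjusted p under 0.05 and black bars are list medians. The 30 further endothelial genes centre at 1.02 for KO against WT, at -0.04 for AAV against KO and at 0.83 for AAV against WT.

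Over the 12 libraries, the genes whose log2 values ran most like the mean of the 8 endothelial genes were Shroom4 (Pearson r = 0.988, Spearman rho = 0.944), Ehd2 (0.986, 0.965), Fgd5 (0.981, 0.951), Podxl (0.981, 0.958) and Efnb2 (0.981, 0.986), the best 5 of 11061 genes with a mean of at least 50. The 12 points share 3 labels and the scaling of their libraries, so these values are a description. For Vegfa the closest were Adcy6 (r = 0.942), Palm (0.925), Sh3tc1 (0.919), Slc38a3 (0.918) and Ndrg1 (0.914), none of them among the 12 lists. Vegfb ran with Bola3 (0.974), Eif1 (0.973), Chchd7 (0.969), Cnbd2 (0.949) and Aes (0.946). Kdr was closest to Ift80 (0.939), Higd1b (0.928), Aqp7 (0.924), Eltd1 (0.923) and Tm4sf1 (0.918), of which Higd1b is a mural and Eltd1, now named Adgrl4, an endothelial gene of the lists. The mean of the standardized levels of the 8 endothelial genes was lowest in WT 2 (-1.81) and WT 4 (-1.55) and highest in AAV 2 (0.96), with WT 3 (0.36) among the libraries labelled KO (0.28 to 0.79) and AAV 4 (-0.24) below them.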

How the data were processed

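RNA from 12 quadriceps (4 mice per label, 1 library each) was sequenced by the authors, who, per the submitters' processing notes, used Trim Galore 0.4.1, FastQC 0.11.2, STAR, HTSeq 0.6.1 and DESeq2 1.16.1. Reads of at least 20 nt were aligned to GRCm38, kept where they had a single location, and counted per gene, leaving out genes that reached 10 reads in no library. The deposited signal values are these counts divided by 1 DESeq2 size factor per library. The log2 fold changes with standard errors, the Wald statistic (a score) and the p-values that the authors deposited hold their own comparisons and were not used. There were 0 columns of other samples. The libraries labelled KO had the same values in both tables (largest difference 0).

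Since the values are whole multiples of a step, whole reads were recovered (100% of values within 0.05 of a whole number in all 12 libraries). The main test was limma 3.58.1 (R 4.3.3) with a mean-variance trend on log2(normalized count + 1), fitted per comparison on 8 libraries over genes of at least 10 in any of them, with Benjamini-Hochberg adjustment over all genes and a threshold of 0.05; fold changes are on this scale, which understates the change of low genes. Tables and figures used Python 3.11.15, pandas 2.3.3, numpy 2.4.6, scipy 1.17.1 and matplotlib 3.10.9, and the fits were tested on simulated data. Alternatives were edgeR 4.0.16 and DESeq2 1.42.0 on the recovered reads, other scalings, pseudocounts and filters, GC and length corrections, a replicate block, 1 fit of all libraries, and libraries left out.

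The 10 genes and 12 further lists (149 of 152 entries matched, older symbols by Ensembl ID) were chosen with earlier results of these data known. All 10 genes are named, with up to 3 called genes per list, direction and comparison by lowest adjusted p, and the 5 genes of closest pattern with a mean of at least 50. Positions are from GENCODE M21, where exons of the 10 genes share 0 bases with other genes.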

Additional observations from a re-analysis of the deposited data

Results flagged for a closer look

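Gaa in WT replicate 2, at 14640.2 normalized counts, lay far from the other 3 libraries labelled WT, with a gap to the nearest of 0.990 of the group's range. Gaa in AAV replicate 4, at 9854.29 normalized counts, lay far from the other 3 libraries labelled AAV, with a gap of 0.952 of the range. In all, 33 groups of 4 libraries (the 10 genes and Gaa in each label) were examined for such a library, and chance alone marks about 1 in 20. Results without these 2 libraries are given beside the comparisons.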

How the results depend on the processing

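Vwf, Tie1 and Vegfb in KO against WT and Vwf in AAV against KO kept direction and call in all fits without 1 library. In KO against WT, 6 of the 10 genes were called and 3 to 10 without 1 library (4 with the fold threshold, 3 to 8). List genes called numbered 56, 34 without WT 2, and 30 to 90 without 1 library. In AAV against KO, 3 were called, 1 with all 12 libraries in 1 fit, with the GC correction and with the replicate block and GC correction, and 1 to 4 without 1 library. With the fold threshold 1 was called, 0 under total reads, the length correction or without AAV 4, and 0 to 1 without 1 library. List genes numbered 21, 34 by DESeq2, and 10 to 30 without 1 library. In AAV against WT, 0 were called, 3 under total reads, 4 by DESeq2, 3 with all 12 libraries, and 0 to 4 without 1 library. With the fold threshold these were 3, 3, 3, and 0 to 4. List genes numbered 7, 18 under total reads, 22 by DESeq2, 22 with all 12 libraries, 11 with the replicate block and GC correction, 1 without WT 2 and AAV 4, and 1 to 28 without 1 library. The cause was not tested.

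The log2 fold change of Pecam1 in AAV against KO (-0.03) turned to 0.13 under total reads, 0.0236 with the length correction and 0.13 without AAV 4 (-0.17 to 0.13 without 1 library). That of Tie1 (-0.08) became 0.0837 under total reads and 0.0294 without AAV 4 (-0.16 to 0.0294 without 1 library). Under the other settings Tie1 ran from -0.35 to 0.0837. Gaa in AAV against WT (0.47) became -0.34 by edgeR and -0.39 by DESeq2 (-0.51 to 1.79 without 1 library). None of these passed, and DESeq2 gave no adjusted p for Gaa there. Pecam1 in KO against WT had an adjusted p of 0.0648 by edgeR and 0.0517 with the length correction.

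Replicate numbers are shared across labels, but same-numbered libraries did not deviate together throughout: the correlation was over 0.1 for replicates 3 and 4 of AAV against WT (0.554 and 0.478) and for no other pair (lowest -0.355), so the numbers were not taken as pairing. With the replicate block 6, 2 and 0 of the 10 genes were called in the 3 comparisons, and 47, 16 and 6 list genes. Vegfb in AAV against KO lost its call (adjusted p = 0.0966).

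Over all genes, 4097 were called in KO against WT, 2636 without WT 2 and 2353 to 7163 without 1 library. In AAV against KO, 3910 were called, 2179 with the replicate block, 1900 with the GC correction added, and 1961 to 5071 without 1 library. In AAV against WT, 193 were called, 127 with no filter, 318 under total reads, 937 by DESeq2, 901 with all 12 libraries, 360 with the block and GC correction, 10 without WT 2 and AAV 4, and 18 to 442 without 1 library. Total reads moved the median of all genes to 0.21 in AAV against KO and 0.12 in AAV against WT. With 4 mice per label, small differences remain undetectable, and the lowest count of the 10 genes in any library was 71 reads (Tek).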
